A study of Mus musculus with 16 samples.

Results

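The hepatic acute phase genes Saa1, Saa2, Saa3, Orm1, Orm2, Orm3, Lcn2, Hp, Itih4 and Fgg were followed in RNA-seq data from mouse livers at 20 days of age. Members were chosen as the rows of the table whose symbol is one of these names, and all 10 names were found among the 18209 genes with an identifier. All 10 were also among the 15781 genes tested, those with 10 or more normalized reads in 4 or more of the 16 libraries. There were 4 genotypes, each with 4 libraries. Every mouse was homozygous for a floxed allele of Trsp, the gene of the selenocysteine tRNA without which selenoproteins are not made. Control mice (Trspfl/fl) carried that allele alone. Trsp-knockout mice (Trspfl/fl::AlbCre) also carried AlbCre, which deletes Trsp in hepatocytes because the albumin promoter drives the Cre recombinase there. The state of Trsp in other liver cells was not tested. Keap1-mutant mice (Keap1C226SC613Shomo::Trspfl/fl) were homozygous in all tissues for serine in place of 2 sensor cysteines of KEAP1, the repressor of the transcription factor NRF2. Compound-mutant mice (Keap1C226SC613Shomo::Trspfl/fl::AlbCre) carried both changes. Each library is taken as 1 liver, as the sample names are numbered within a genotype. No label states from which litters the livers came, so the p-values measure the spread between these samples.

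The acute phase response is the change in plasma protein production by which hepatocytes react to infection, injury or inflammation. Interleukin-6 acts on hepatocytes through gp130 and STAT3, and interleukin-1 and tumour necrosis factor act through NF-kB, and both routes work together with C/EBP factors at the promoters of these genes. Serum amyloid A (Saa1, Saa2) and, in mouse, orosomucoid (Orm1, Orm2, Orm3), lipocalin 2 (Lcn2) and haptoglobin (Hp) are products of this response, while albumin and transthyretin are classical negative acute phase proteins.

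In these livers most of the acute phase genes varied widely between mice of one genotype, most of all in the compound mutant. In the compound-mutant group, replicates 1 and 3 had very high Saa1, Saa2, Saa3, Orm2 and Lcn2, while replicates 2 and 4 of the same genotype lay within or near the range of the other 12 libraries. With limma, 0 of the 10 genes were called in any comparison of genotypes.

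The promoters are shown for genes that varied widely between libraries, beside 1 that did not. RefSeq promoter windows (build GRCm38.p6, 250 bases before to 50 bases after the start, read 5′ to 3′ along the gene) were held for 8 of the 10 genes, namely Saa1, Saa2, Saa3, Orm2, Orm3, Lcn2, Itih4 and Fgg. Capitals mark letters that match 1 of 4 motifs searched on both strands: the C/EBP motif TTGCNNAA, the STAT motif TTCNNNGAA, the interleukin-6 response element CTGGGAA, and the NF-kB consensus. The 5 windows below come from Saa1 (chr7:46742931-46743230, minus strand), Saa3 (chr7:46715627-46715926, minus strand), Orm2 (chr4:63362199-63362498, plus strand), Lcn2 (chr2:32387690-32387989, minus strand) and Itih4 (chr14:30886226-30886525, plus strand). The first 4 are among the genes that varied most, and Itih4 is the gene that varied least.
Saa1: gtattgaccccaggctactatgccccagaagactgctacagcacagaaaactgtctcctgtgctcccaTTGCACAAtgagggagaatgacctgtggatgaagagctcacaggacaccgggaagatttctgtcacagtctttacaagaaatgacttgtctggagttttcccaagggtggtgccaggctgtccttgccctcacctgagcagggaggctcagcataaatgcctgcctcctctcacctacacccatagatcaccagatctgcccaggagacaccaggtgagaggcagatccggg
Saa3: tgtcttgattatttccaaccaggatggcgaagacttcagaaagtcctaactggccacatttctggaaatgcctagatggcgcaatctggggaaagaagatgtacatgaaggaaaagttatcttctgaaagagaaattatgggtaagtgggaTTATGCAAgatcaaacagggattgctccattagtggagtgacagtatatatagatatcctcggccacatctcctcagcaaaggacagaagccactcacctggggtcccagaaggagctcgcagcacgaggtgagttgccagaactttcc
Orm2: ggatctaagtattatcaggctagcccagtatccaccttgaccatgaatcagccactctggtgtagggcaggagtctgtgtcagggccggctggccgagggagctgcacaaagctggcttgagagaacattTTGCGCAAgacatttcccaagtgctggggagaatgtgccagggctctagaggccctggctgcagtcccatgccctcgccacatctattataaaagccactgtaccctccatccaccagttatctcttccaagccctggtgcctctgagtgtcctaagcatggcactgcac
Lcn2: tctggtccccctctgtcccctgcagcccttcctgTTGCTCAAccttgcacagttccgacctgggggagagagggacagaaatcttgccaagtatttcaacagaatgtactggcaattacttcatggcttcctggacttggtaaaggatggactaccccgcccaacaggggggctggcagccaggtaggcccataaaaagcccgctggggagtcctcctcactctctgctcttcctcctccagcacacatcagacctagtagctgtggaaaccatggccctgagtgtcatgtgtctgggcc
Itih4: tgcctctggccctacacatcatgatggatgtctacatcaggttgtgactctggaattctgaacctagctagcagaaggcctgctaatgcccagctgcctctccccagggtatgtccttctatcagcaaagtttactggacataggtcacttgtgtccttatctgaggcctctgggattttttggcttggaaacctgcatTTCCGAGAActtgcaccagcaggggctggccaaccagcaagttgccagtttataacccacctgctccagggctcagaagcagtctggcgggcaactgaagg

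The C/EBP letters were found in 6 of the 8 windows, those of Saa1, Saa2, Saa3, Orm2, Orm3 and Lcn2, against 10.8% of all 32851 promoter windows of this length. In Saa1 they lay 182 to 175 bases before the start and in Saa2 183 to 176 bases before it. In Saa3 they lay on the other strand, 99 to 92 bases before the start. In Orm2 the match TTGCGCAA, 120 to 113 bases before the start, reads the same on both strands. In Orm3 the letters lay 121 to 114 bases before the start, and in Lcn2 they lay farther away, at 216 to 209 bases. The STAT letters were found in 1 of the 8 windows, that of Itih4, at 51 to 43 bases before the start, against 8.3% of all windows. The interleukin-6 response element was found in 2, 13 to 7 bases before the start of Fgg and 9 to 15 bases after the start of Orm3 on the other strand, against 11.1%. The NF-kB consensus was found in 0 of the 8 windows, against 8.46%, which says only that these letters are not in these windows. The Saa1 and Saa2 windows had 287 identical bases in 301 alignment columns (95.3%), and those of Orm2 and Orm3 had 263 in 305 (86.2%).

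The deposited values are log2 of a normalized count plus 4, the normalized count being the reads of a gene divided by a size factor of its library, and a value of 2 therefore stands for 0 reads. Libraries held between 11386669 and 19164133 reads. The hepatocyte markers were present in every library (all 10 of 10 above 0 reads). Gpx1, a selenoprotein mRNA, was between 13.09 and 14.20 in the 8 libraries without AlbCre and between 11.43 and 11.99 in the 8 libraries with it, so the libraries followed their Trsp labels. One library did not follow another label. All 16 are labelled male, but compound-mutant replicate 1 held 28798 reads on Xist, the RNA of the inactive X chromosome, against 22 to 50 in the other 15, and 2 reads on Y-linked genes. That library had the highest value of 8 of the 10 acute phase genes, so the fold changes that moved by over 1.5 times without it are also given without it where the compound mutant is compared. Compound-mutant replicate 3, the other high library, had 22 reads on Xist and 3066 on Y-linked genes. Adipocyte markers also moved with replicate 1. Their summed normalized count was 2746 there, 518 in compound-mutant replicate 3 and 987 in control replicate 3, against 180 to 687 in the other 13 libraries, and Adipoq was at 0 reads in 12 libraries, compound-mutant replicate 3 included. Control replicate 3 was at the same time the library with the lowest Saa1, Orm1 and Lcn2.

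Saa1 and Saa2 (ENSMUSG00000074115 and ENSMUSG00000057465) encode the acute phase serum amyloid A apolipoproteins of high density lipoprotein. In control livers Saa1 was 8.89, 7.88, 5.38 and 5.68 on the log2 scale in replicates 1 to 4, and in Trsp-knockout livers 7.07, 5.98, 7.57 and 8.17. In Keap1-mutant livers it was 6.66, 7.17, 6.06 and 7.37, and in compound-mutant livers 14.64, 7.73, 13.15 and 6.29. The compound-mutant group thus spanned from within the range of the other genotypes to far above it, and each pair of groups overlapped. The normalized count of Saa1 was 25599 in replicate 1 and 74.0 in replicate 4 of the same genotype, 346-fold apart. In control livers the highest and lowest replicate were 12.6-fold apart, in Trsp-knockout livers 4.80-fold and in Keap1-mutant livers 2.57-fold. Saa2 was 14.34, 5.76, 12.12 and 4.91 in the 4 compound-mutant livers and between 4.14 and 7.60 in the other 12 libraries, and its range over all 16, 10.19 on the log2 scale, was the widest of the 10 genes. GENCODE vM21 transcripts of Saa1 shared 46.0% of their distinct 31-base words with Saa2, so the division of reads between both genes is uncertain, but their sum is less affected.

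Saa3 (ENSMUSG00000040026) encodes an inducible serum amyloid A that is also made outside hepatocytes, by macrophages and adipocytes among others. It was 12.76, 5.56, 10.19 and 4.91 in the compound-mutant livers and between 4.24 and 6.49 in the other 12 libraries. In normalized counts it was 6928 in replicate 1, the highest of all libraries, and 14.9 in control replicate 4, the lowest. Replicates 2 and 4 of the compound mutant thus lay inside the range of the other genotypes for all 3 serum amyloid A genes. Saa1, Saa2 and Saa3 together took 0.421% of the reads of compound-mutant replicate 1 (95% Wilson interval 0.418% to 0.425%) and 0.107% of replicate 3 (0.105% to 0.109%). In replicate 2 the share was 0.00205% (0.00184% to 0.00228%) and in replicate 4 it was 0.000814% (0.000684% to 0.000969%). These intervals cover counting error only, which was small beside the differences between mice.

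**Figure D1:**
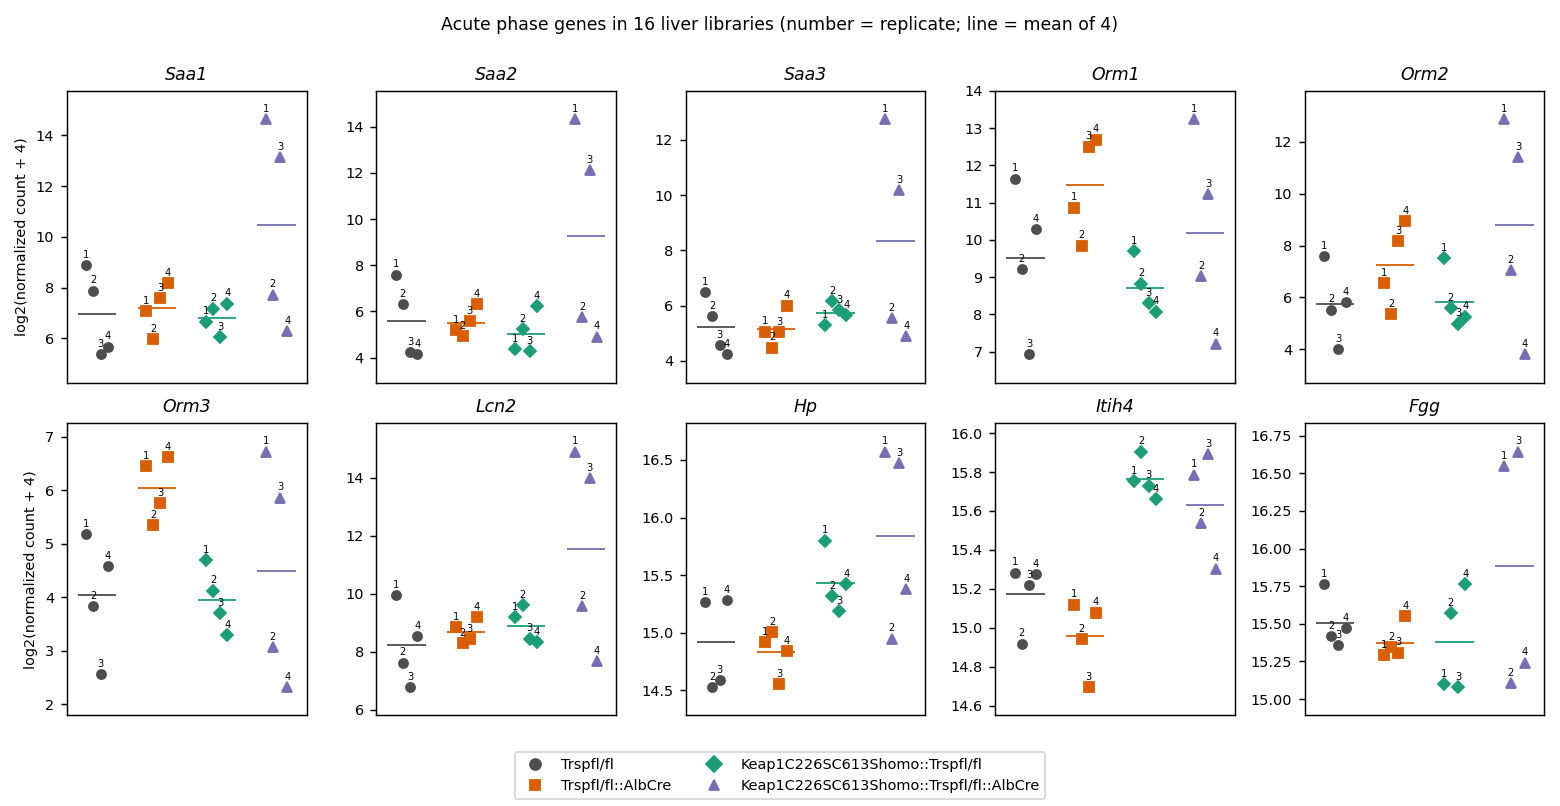
Log2(normalized count + 4) of the 10 acute phase genes on the vertical axis in each of 16 libraries, grouped along the horizontal axis by genotype (circles Trspfl/fl, squares Trspfl/fl::AlbCre, diamonds Keap1C226SC613Shomo::Trspfl/fl, triangles Keap1C226SC613Shomo::Trspfl/fl::AlbCre), with numbers for the replicate and lines for the mean of 4 libraries. Triangles 1 and 3 stand high in Saa1 (14.64 and 13.15), Saa2, Saa3, Orm2 and Lcn2, while triangles 2 and 4 lie among or near the other genotypes.

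Orm1, Orm2 and Orm3 (ENSMUSG00000039196, ENSMUSG00000061540 and ENSMUSG00000028359) encode orosomucoid, the alpha-1-acid glycoprotein that binds small lipophilic molecules in plasma. Orm1 was 13.25, 9.03, 11.24 and 7.22 in the compound-mutant livers, and 10.87, 9.85, 12.50 and 12.69 in the Trsp-knockout livers. In control livers it was 11.64, 9.22, 6.93 and 10.30, and in Keap1-mutant livers 9.70, 8.83, 8.29 and 8.08. Unlike the serum amyloid A genes, Orm1 was thus higher in 2 Trsp-knockout livers and 1 control liver than in compound-mutant replicate 3. Orm2 was 12.89, 7.05, 11.40 and 3.81 in the compound-mutant livers and between 4.02 and 8.95 in the other 12, so that the highest and the lowest Orm2 of all 16 libraries came from the same genotype, 758-fold apart in normalized counts. Orm3, the weakest of the 10 genes, was 6.44, 5.35, 5.77 and 6.62 in Trsp-knockout livers and 5.18, 3.83, 2.55 and 4.58 in control livers. It was 4.69, 4.12, 3.70 and 3.28 in Keap1-mutant livers and 6.72, 3.07, 5.86 and 2.32 in compound-mutant livers. Each of the 4 Trsp-knockout livers exceeded each control and Keap1-mutant liver in Orm3, whereas the compound-mutant group spanned both. Orm3 rested on few reads, from 1 to 109 per library, and reached a normalized count of 10 in 11 of 16 libraries. Orm1 shared 27.5% of its 31-base words with Orm2, so the division of reads within the orosomucoid genes is uncertain as well.

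Lcn2 (ENSMUSG00000026822) encodes lipocalin 2, which withholds iron from bacteria by binding their siderophores and is made by hepatocytes and by neutrophils. It was 9.96, 7.63, 6.79 and 8.55 in control livers and 8.85, 8.30, 8.43 and 9.19 in Trsp-knockout livers. It was 9.19, 9.62, 8.45 and 8.32 in Keap1-mutant livers and 14.91, 9.59, 14.003 and 7.69 in compound-mutant livers. Replicates 1 and 3 of the compound mutant were again high, at 30735 and 16413 normalized counts, against 202 in replicate 4. Lcn2 alone took 0.243% of the reads of replicate 1 (95% Wilson interval 0.240% to 0.246%) and 0.0013% of replicate 4 (0.00114% to 0.0015%). Its transcripts shared 0% of their 31-base words with other genes.

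Hp and Fgg encode haptoglobin, which binds free haemoglobin, and the gamma chain of fibrinogen, the precursor of the fibrin clot, and both are abundant liver mRNAs at rest. Hp (ENSMUSG00000031722) was 16.57, 14.95, 16.48 and 15.38 in the compound-mutant livers and between 14.53 and 15.80 in the other 12. Fgg (ENSMUSG00000033860) was 16.55, 15.11, 16.65 and 15.24 in the compound-mutant livers and between 15.08 and 15.77 in the other 12. The same replicates 1 and 3 thus had the highest values of both genes, but over all 16 libraries the highest normalized count was 4.12-fold the lowest for Hp and 2.96-fold for Fgg, against 683-fold for Saa1. Itih4 (ENSMUSG00000021922), the heavy chain 4 of the inter-alpha-trypsin inhibitor family, was 15.28, 14.92, 15.22 and 15.28 in control livers and 15.12, 14.94, 14.70 and 15.08 in Trsp-knockout livers. It was 15.75, 15.91, 15.73 and 15.66 in Keap1-mutant livers and 15.79, 15.54, 15.89 and 15.30 in compound-mutant livers. Itih4 alone among the 10 genes had values that did not overlap between the Keap1 genotypes. Each Keap1-mutant liver was above each control liver and each compound-mutant liver above each Trsp-knockout liver, with narrow groups. Groups that did not overlap were also found for 6.23% of all genes tested with Trsp intact and 8.61% with Trsp deleted. That is near the 1 of 10 members here, and Itih4 was not called in either comparison.

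Per kilobase of the longest coding transcript in GENCODE vM21, the abundant members stayed above the inducible ones in most livers. In control livers the median normalized count per kilobase was 23806 for Hp, 25621 for Fgg and 11021 for Itih4, against 1194 for Orm1, 309 for Lcn2, 229 for Saa1, 70.0 for Saa2, 60.9 for Orm2, 19.5 for Orm3 and 14.8 for Saa3. The transcript used was 2200 bases long for Saa3, against 609 for Saa1, 652 for Saa2 and 773 for Orm3. Before division by length, the control median was 32.6 for Saa3 and 15.1 for Orm3, so the last place of Saa3 depends on that length. In compound-mutant replicate 1, Saa1 reached 42034 and Lcn2 33591 per kilobase, both above the highest value of Itih4 in any library, 17384.

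The spread between libraries of one genotype was measured as the SD pooled over the 4 genotypes, as a description. It was 2.54 on the log2 scale for Saa2, 2.41 for Orm2, 2.27 for Saa1, 1.98 for Saa3, 1.90 for Lcn2, 1.82 for Orm1 and 1.28 for Orm3. The median over all 15781 genes tested was 0.30 and the 95th percentile was 0.86. Of all genes tested, 11 had a larger pooled SD than Saa2 and 21 a larger one than Saa1. Among the 500 tested genes nearest in mean level, the pooled SD of Saa1, Saa2 and Lcn2 was above all others, and that of Saa3, Orm1 and Orm2 was above 99.8% of them. Hp (0.48), Fgg (0.46) and Itih4 (0.19) lay at the 86.8th, 84.8th and 23.6th percentile of their own 500 neighbours. For all 10 genes the compound mutant had the largest SD of the 4 genotypes, while 27.5% of all genes tested had their largest SD in that genotype. Control livers had the next largest SD of Saa1 (1.71, against 0.93 in Trsp-knockout and 0.58 in Keap1-mutant livers). The SD of Saa3 was 3.76 in compound-mutant livers, against 1.03 in control, 0.63 in Trsp-knockout and 0.35 in Keap1-mutant livers. For Lcn2 it was 3.47, against 1.36, 0.41 and 0.61, and for Orm1 2.62, against 1.99, 1.36 and 0.72. The pooled SDs and their ranks thus rest in large part on the compound mutant, and ranks without that genotype were not computed. The Keap1-mutant livers were more alike than the others in general too, with a median SD over all genes of 0.22 against 0.27 in each other genotype.

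**Figure D2:**
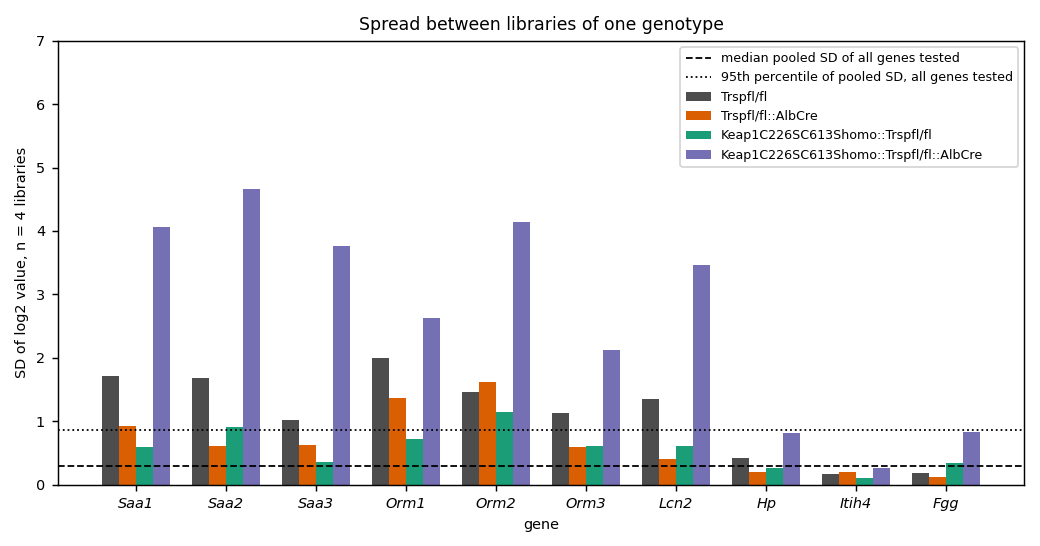
SD of the log2 values over the 4 libraries of each genotype (bars, one colour per genotype) for the 10 acute phase genes, with the median (dashed, 0.30) and the 95th percentile (dotted, 0.86) of the pooled SD over all genes tested. The bar of the compound mutant (Keap1C226SC613Shomo::Trspfl/fl::AlbCre) is the tallest of the 4 for each gene.

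The first comparison asks what the loss of selenoprotein synthesis in hepatocytes does to the acute phase genes while KEAP1 is intact. Trsp-knockout livers differed from controls in Saa1 by a log2 fold change of 0.24 (standard error 1.41, 95% interval -2.76 to 3.24). Lcn2 differed by 0.46 (standard error 1.18). All 3 orosomucoid genes had a positive fold change, Orm1 of 1.95 (standard error 1.13), Orm2 of 1.52 (standard error 1.499) and Orm3 of 2.01 (standard error 0.81, 95% interval 0.30 to 3.72, limma adjusted p = 0.36 over all genes tested). A gene counted as called where its adjusted p was under 0.01 and its fold change exceeded 1 log2 unit in either direction. By limma 0 of the 10 members were called, against 0.215% of all genes tested (34 of 15781), and at an unadjusted p under 0.05 the count was 1 of 10, that of Orm3, against 11% of all genes. Groups did not overlap for 1 of 10 members, Orm3, against 6.01% of all genes. The median fold change of the 10 genes was 0.08, beside -0.01 over all genes tested.

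The same deletion was compared on the Keap1-mutant background, where the sensor cysteines are missing. The compound-mutant mean of Saa1 was 10.45 ± 4.07 (SD, n = 4) and the Keap1-mutant mean 6.82 ± 0.58 (SD, n = 4), so that the difference was 3.64 (standard error 1.41, 95% interval 0.64 to 6.64, limma adjusted p = 0.27). For Saa2 the difference was 4.25 (standard error 1.58, limma adjusted p = 0.24), Lcn2 of 2.65 (standard error 1.18, limma adjusted p = 0.33), Orm2 of 2.95 (standard error 1.499) and Saa3 of 2.61 (standard error 1.24). Those differences were set by 2 of the 4 livers. Their standard errors use a spread shared by the 4 genotypes and are smaller than the SD of the compound mutant would give. Without replicate 1, the library with Xist reads, the fold change of Saa1 was 2.24 (standard error 1.25, limma adjusted p = 0.56), and without replicates 1 and 3 it was 0.19 (standard error 0.87, limma adjusted p = 0.98), with Lcn2 at -0.26, Orm2 at -0.41 and Saa3 at -0.51. Without replicate 1 alone, Saa2 was at 2.57, Saa3 at 1.14, Orm2 at 1.58 and Lcn2 at 1.53. Leaving out replicate 4, a low liver, moved them the other way, with Saa1 at 5.03 (limma adjusted p = 0.049) and Lcn2 at 3.94 (limma adjusted p = 0.048), neither called. The fold changes of Orm1, Orm3, Hp and Fgg were 1.46, 0.55, 0.41 and 0.51 with all libraries and 0.44, -0.20, 0.17 and 0.29 without replicate 1. By limma 0 of 10 members were called, against 0.171% of all genes (27), and at an unadjusted p under 0.05 the count was 3 of 10 (Saa1, Saa2 and Lcn2) against 13.6%. Groups overlapped for all 10 members, while 7.69% of all genes had groups that did not. The median fold change of the 10 genes was 2.04, beside -0.00 over all genes.

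The effect of the KEAP1 cysteine substitutions was compared with Trsp intact and with Trsp deleted. Both comparisons are given side by side, and the compound-mutant libraries of the previous comparison enter the second one again. Itih4 had a log2 fold change of 0.59 with Trsp intact (standard error 0.17, 95% interval 0.22 to 0.95, limma adjusted p = 0.28) and of 0.67 with Trsp deleted (standard error 0.17, 95% interval 0.30 to 1.04, limma adjusted p = 0.059). Hp had 0.51 (standard error 0.32) with Trsp intact and 1.01 (standard error 0.32, limma adjusted p = 0.12) with Trsp deleted. Saa1 had -0.14 (standard error 1.41) with Trsp intact and 3.26 (standard error 1.41, limma adjusted p = 0.24) with Trsp deleted, the latter falling to 1.86 without compound-mutant replicate 1 and to -0.19 without replicates 1 and 3. Without replicate 4, a low liver, Saa1 rose to 4.64 (limma adjusted p = 0.038), Saa2 to 5.24 (limma adjusted p = 0.042) and Saa3 to 4.36 (limma adjusted p = 0.032), none of them called. Over 30 alternatives with Trsp deleted, the fold change of Lcn2 was at most 4.14 and its lowest limma adjusted p was 0.021. For Hp these were 1.31 and 0.04, and neither gene was called. With Trsp deleted, the fold changes of Saa2, Saa3, Orm2, Lcn2 and Fgg were 3.78, 3.21, 1.53, 2.85 and 0.51, and without replicate 1 they were 2.09, 1.74, 0.17, 1.73 and 0.29. Orm1 and Orm3 had negative values with Trsp deleted, at -1.29 (standard error 1.13) and -1.55 (standard error 0.81, limma adjusted p = 0.33). Without replicate 1, Orm1 was at -2.31 and Orm3 at -2.29. Orm3 was at -3.35 (standard error 0.62, limma adjusted p = 0.032) without replicates 1 and 3, the libraries left out because of their Saa1. By limma 0 of 10 members were called with Trsp intact, against 0.0127% of all genes (2), and 0 of 10 with Trsp deleted, against 0.57% (90). At an unadjusted p under 0.05 the counts were 1 of 10 (Itih4) against 9.07%, and 6 of 10 (Saa1, Saa2, Saa3, Lcn2, Hp and Itih4) against 17.6%. Groups did not overlap for 1 of 10 members, Itih4, with Trsp intact, against 6.23% of all genes, and again for Itih4 alone with Trsp deleted, against 8.61%.

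Whether the effect of the Trsp deletion differed between the Keap1 backgrounds was tested as an interaction. It was 3.40 on the log2 scale for Saa1 (standard error 1.997, limma adjusted p = 0.54), 4.33 for Saa2 (standard error 2.23, limma adjusted p = 0.50), 2.19 for Lcn2 (standard error 1.67) and -1.46 for Orm3 (standard error 1.14). Without compound-mutant replicate 1 the interaction was 1.999 for Saa1, 2.64 for Saa2, 1.07 for Lcn2 and -2.20 for Orm3, and without replicates 1 and 3 it was -0.05, 0.38, -0.72 and -3.26. For Saa3, Orm1, Orm2, Hp, Itih4 and Fgg it was 2.70, -0.49, 1.43, 0.50, 0.08 and 0.64 with all libraries and 1.23, -1.51, 0.06, 0.25, 0.03 and 0.42 without replicate 1. By limma 0 of 10 members were called, against 0.057% of all genes (9), and at an unadjusted p under 0.05 the count was 0 of 10, against 10.8%. With limma voom on the recovered reads, 0 of 10 members were called in each of the 5 comparisons, as with limma on the deposited values. At 4 libraries per group and this spread the intervals of Saa1 were about 6 log2 units wide in each pairwise comparison (for example -2.76 to 3.24), so that only large changes of the group mean could be detected. The fit shares 1 estimate of spread among the 4 genotypes, although the SD of Saa1 was 4.07 in compound-mutant livers. It was 1.71 in control, 0.93 in Trsp-knockout and 0.58 in Keap1-mutant livers. The intervals of Saa1 are therefore too wide where the compound mutant is absent and too narrow where it is compared.

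**Figure D3:**
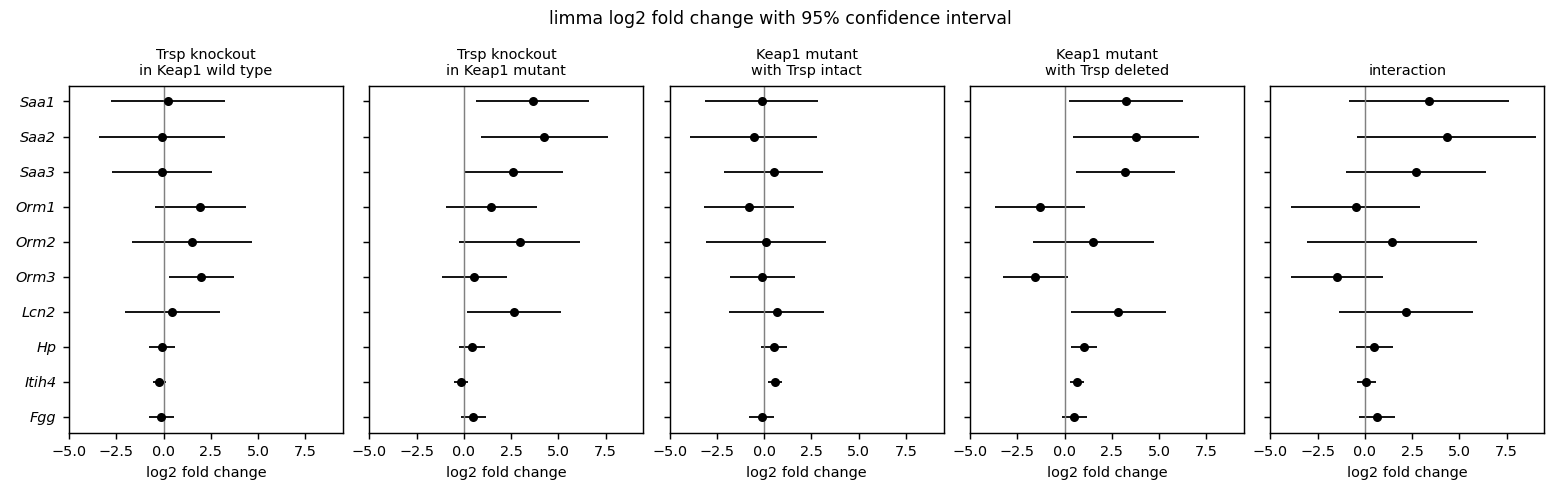
Limma log2 fold changes (points) with 95% confidence intervals (lines) of the 10 acute phase genes, on the horizontal axis, in the 4 comparisons of genotypes and for the interaction. Saa1 spans -2.76 to 3.24 for the Trsp knockout in Keap1 wild type, while the interval of Itih4 is narrow and above 0 in both comparisons of Keap1 genotypes.

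The 10 genes were next compared with each other between livers of one genotype, after the mean of each genotype was taken off. Compound-mutant replicates 1 and 3 form a group of their own in Saa1, so no correlation coefficient is given over all 16 libraries, and relations were computed for the 9 other members over the remaining 14 libraries. With an exact permutation test of libraries within genotypes (two-sided, 27648 arrangements, 9 relations), Saa2 followed Saa1 with Pearson's r = 0.94 (p = 7.2e-05, limma adjusted p = 0.0023 over all genes) and Spearman's rho = 0.94 (exact permutation p = 7.2e-05). Saa3 followed with r = 0.90 (exact permutation p = 0.0033, limma adjusted p = 0.0098) and rho = 0.86 (exact permutation p = 0.0085). Both relations held without the 2 further libraries farthest from the median in Saa1, control replicates 1 and 3, with r = 0.89 for Saa2 and 0.84 for Saa3 over 12 libraries. The serum amyloid A genes thus rose and fell together also among livers that were low in all 3. Saa1 shared 46.0% of its 31-base words with Saa2, and the part of shared reads in the relation of these 2 genes was not tested.

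Orm1 had r = 0.70 with Saa1 (exact permutation p = 0.046, limma adjusted p = 0.062) and rho = 0.65, and Orm2 had r = 0.72 (exact permutation p = 0.011, limma adjusted p = 0.057) and rho = 0.71. Without control replicates 1 and 3, r was 0.44 for Orm1 and 0.58 for Orm2, so both rested in part on those libraries. Lcn2 had r = 0.65 (exact permutation p = 0.096, limma adjusted p = 0.098) and rho = 0.48, falling to 0.27 over 12 libraries. Fgg had r = 0.52 (exact permutation p = 0.028, limma adjusted p = 0.33) with rho = 0.43 (exact permutation p = 0.14), and Orm3 had r = 0.57 (exact permutation p = 0.15, limma adjusted p = 0.19) with rho = 0.47. Hp (r = -0.05, exact permutation p = 0.85, limma adjusted p = 0.94, rho = -0.14) and Itih4 (r = -0.01, exact permutation p = 0.97, limma adjusted p = 0.99, rho = 0.11) had values near 0. Over 12 libraries r was -0.62 for Hp (exact permutation p = 0.15), so its value depended on control replicates 1 and 3. It was -0.15 for Itih4, 0.17 for Orm3 and 0.34 for Fgg over the same 12 libraries. Among the 14 libraries 2 of 9 members were associated with Saa1 at a limma adjusted p under 0.05, against 4.61% of all genes (728 of 15780). With all 16 libraries 7 of 9 were, those above without Hp and Itih4, against 6.18% of all genes (975). Of the 5 that did not pass in 14 libraries, Orm2 had a slope of 0.97 log2 units per log2 unit of Saa1 in 16 libraries and 0.95 in 14, and Orm1 had 0.67 and 0.88, so that these slopes were about as large or larger without compound-mutant replicates 1 and 3. The slopes of the other 3 were smaller in 14 libraries, at 0.49 and 0.39 for Orm3, 0.77 and 0.53 for Lcn2, and 0.18 and 0.10 for Fgg. Over all 45 pairs of the 10 genes, 40 had a positive r in the 14 libraries, from -0.15 to 0.94 with a median of 0.51.

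Genes outside the 10, with a mean log2 value of at least 6, were ranked by the likeness of their deviations from the genotype means to those of Saa1 in all 16 libraries. That ranking is a description and rests largely on compound-mutant replicates 1 and 3, so the coefficients given are those in the other 14 libraries. The first 5 were Steap4, a metalloreductase of iron and copper (r = 0.93), Slc11a2, the divalent metal transporter (0.62), Saa4, the constitutive serum amyloid A (0.61), Cp, the copper ferroxidase ceruloplasmin (0.43), and Zc3h12a, an endoribonuclease that degrades inflammatory mRNAs (0.42). Steap4 was 13.74, 10.91, 14.12 and 10.69 in the compound-mutant livers and between 10.29 and 11.96 in the other 12. Among the genes most opposed to Saa1 were Gstm1, a glutathione S-transferase and 1 of the NRF2 targets followed in the study (r = -0.89), and Abhd14b (-0.82). Gstm1 was 11.74, 13.02, 12.10 and 13.56 in the compound-mutant livers, the order of the 4 livers being the reverse of that of Saa1. The genes ranked most like Lcn2 were Zc3h12a, Steap4, Cp, Lrg1 and Slc11a2, with r = 0.68, 0.69, 0.58, 0.77 and 0.58 in the 14 libraries, and Lrg1 encodes a leucine-rich plasma glycoprotein.

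**Figure D4:**
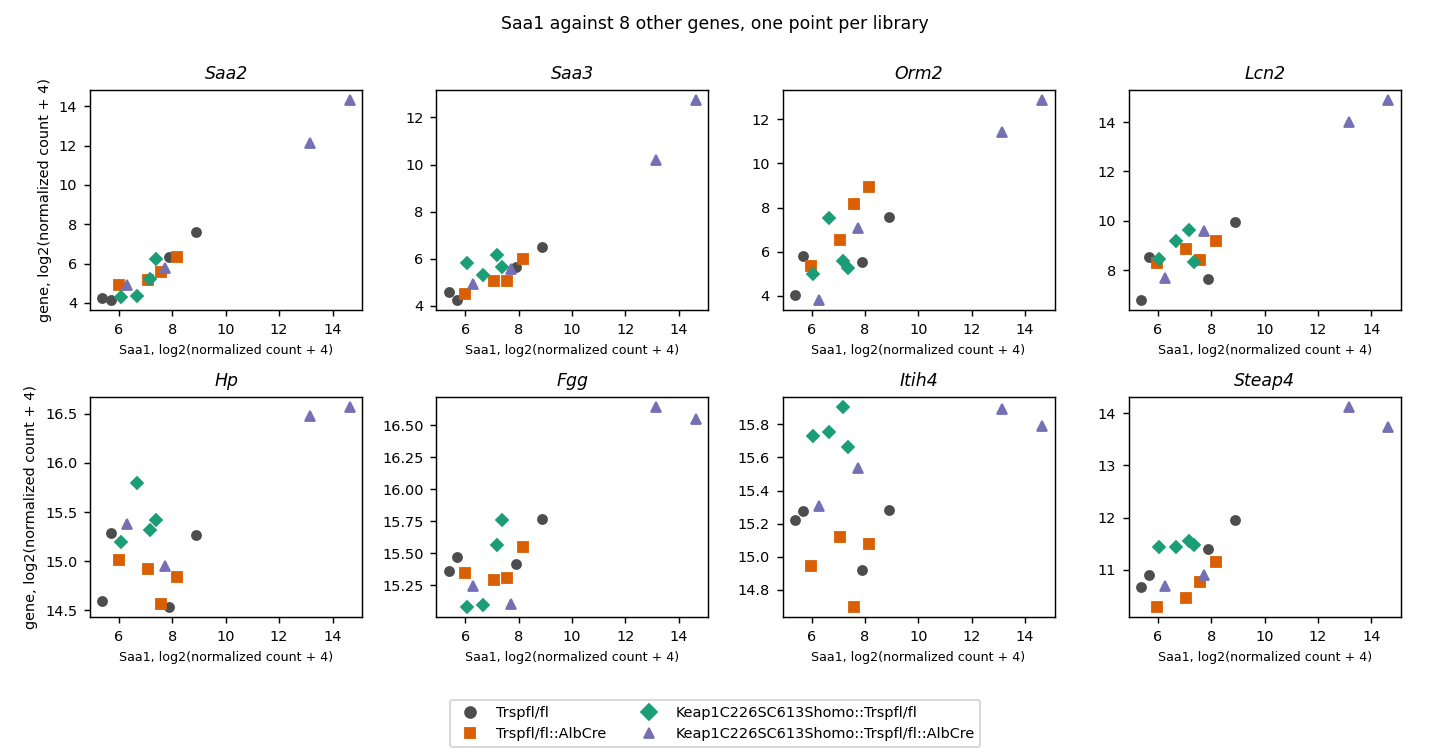
Log2(normalized count + 4) of Saa1 on the horizontal axis against 8 other genes on the vertical axes, one point per library, with symbols for the genotypes as in the plot of values by library. The points are values before the mean of each genotype was taken off. After that step, r with Saa1 among the 14 libraries at a Saa1 value under 9 was 0.94 for Saa2, 0.90 for Saa3 and 0.93 for Steap4. It was -0.05 for Hp and -0.01 for Itih4.

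The other genes of the response were followed with 30 positive acute phase genes outside the 10. In the 4 comparisons of genotypes and the interaction, 0 of 30 were called by limma, with a median fold change of -0.05 for the Trsp knockout in Keap1 wild type, 0.34 in the Keap1 mutant, 0.34 for the Keap1 mutant with Trsp intact, 0.55 with Trsp deleted and 0.27 for the interaction. The counts at an unadjusted p under 0.05 were 3, 7, 6, 14 and 2 of 30, against 11%, 13.6%, 9.07%, 17.6% and 10.8% of all genes tested. The same shares apply, in this order, to such counts of the 3 lists that follow. At a limma adjusted p under 0.05 there were 2 of 30 for the Keap1 mutant with Trsp deleted, against 327 of 15781 genes. The smallest p was that of A2m, the protease inhibitor alpha-2-macroglobulin, which was 10.87, 6.13, 8.43 and 5.49 in compound-mutant and 3.71, 2.73, 3.05 and 4.07 in Trsp-knockout livers (log2 fold change 4.34, standard error 0.94, limma adjusted p = 0.026). Of the 30 genes, 10 were highest in compound-mutant replicate 1 and 6 in replicate 3, against 7.83% and 6.90% of all genes tested. Apcs, the serum amyloid P component, was 13.84, 12.52, 13.54 and 12.13 in the compound-mutant livers and between 11.52 and 12.75 in the others. Hpx, the haem-binding haemopexin, was 17.19, 16.56, 17.11 and 16.39, Fga, the fibrinogen alpha chain, 17.13, 15.61, 17.05 and 15.74, and Fgb, the beta chain, 16.74, 15.47, 16.82 and 15.66. Saa4 was 13.17, 11.28, 13.27 and 11.56. All 5 were thus highest of the 16 libraries in compound-mutant replicates 1 and 3, like Fgg. Crp, C-reactive protein, which is a minor acute phase protein in mouse, was 12.47, 12.32, 12.62 and 12.75 in the compound-mutant livers and between 12.06 and 12.82 in the others.

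Of 20 negative acute phase genes, 14 had their lowest value of the 16 libraries in compound-mutant replicate 1 and 1 in replicate 3, against 11.3% and 6.12% of all genes. Alb, albumin, was 19.23, 20.11, 19.74 and 20.17 in the compound-mutant livers and between 19.97 and 20.68 in the others, and Ttr, transthyretin, was 14.53, 15.15, 14.77 and 15.52, against 15.22 to 16.09. By limma 0 of 20 were called in any of the 5 tests, the counts at an unadjusted p under 0.05 being 1, 3, 3, 3 and 2, with the smallest p for Itih1, another heavy chain of the inter-alpha-trypsin inhibitor family, at -0.57 for the Trsp knockout in the Keap1 mutant (standard error 0.14, limma adjusted p = 0.080). Its median fold changes as a list were -0.07, -0.36, 0.11, -0.05 and -0.34 in the same order as above. Summed hepatocyte markers were lowest in the same libraries, at 1033330 normalized counts in compound-mutant replicate 1 and 1448120 in replicate 3, against 1823280 to 2477180 in the other 14. Alb, Apoa1 and Ttr are in both lists and Alb is the largest part of that sum, so it is not a separate observation. In tissue RNA, fewer cells of a type and less RNA per cell cannot be told apart.

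Genes of the signalling routes were counted in the same way. Of the interleukin-6 and STAT3 list, 20 of 22 genes were in the table and 19 were tested, and 0 were called by limma in any of the 5 tests, with 0, 4, 1, 3 and 1 at an unadjusted p under 0.05. The smallest p was that of Cebpa, a C/EBP factor of differentiated hepatocytes, at 0.97 for the Keap1 mutant with Trsp intact (standard error 0.19, limma adjusted p = 0.071). Il6 itself lay between 2 and 3.83 in all 16 libraries, at 2 (0 reads) in compound-mutant replicate 1 and at 2.75 in replicate 3. Stat3 was 11.29, 11.33, 11.65 and 11.26 and Cebpb 10.45, 10.46, 11.16 and 11.03 in the compound-mutant livers, within the range of the other libraries for Cebpb and up to the highest value of all for Stat3 in replicate 3. Cebpd, the C/EBP factor induced in inflammation, was 9.22, 8.15, 9.30 and 7.95, with replicates 1 and 3 above the 12 others (7.26 to 9.13). Socs3, the feedback inhibitor of gp130 signalling, was 8.17, 6.68, 8.97 and 7.72 in the compound-mutant livers, but its highest values were 9.55 and 9.47 in Trsp-knockout replicates 3 and 4.

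Of the interleukin-1, tumour necrosis factor and NF-kB list, all 22 genes were in the table and 19 were tested, 0 were called by limma in any of the 5 tests, and 2, 3, 0, 5 and 2 had an unadjusted p under 0.05. The smallest p was that of Il1rap, the interleukin-1 receptor accessory protein, which was 9.60, 10.39, 10.13 and 10.73 in compound-mutant and 11.04, 10.79, 11.05 and 10.87 in Keap1-mutant livers (-0.72, standard error 0.17, limma adjusted p = 0.059). Of the 19, 4 were highest in compound-mutant replicate 1 and 7 in replicate 3, against 7.83% and 6.90% of all genes tested, and 5 were lowest in replicate 4, against 6.49%. Nqo1, 1 of the NRF2 targets followed in the study, was 6.88, 7.16, 6.17 and 6.52 in the compound-mutant livers, so that replicates 1 and 3 were not set apart in it. In Trsp-knockout livers Nqo1 was 9.29 to 10.16 and in control livers 7.21 to 7.57. Gstm1, another NRF2 target of the study, was lower in compound-mutant replicates 1 and 3 (11.74 and 12.10) than in replicates 2 and 4 (13.02 and 13.56).

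Markers of other cells were summed beside the acute phase genes. For 13 of 14 neutrophil markers in the table the sum was 1360, 1857, 2831 and 961 normalized counts in compound-mutant replicates 1 to 4, 675 to 2254 in Keap1-mutant, 372 to 636 in Trsp-knockout and 430 to 1758 in control livers, so replicate 2, low in the acute phase genes, was above replicate 1. Of the tested neutrophil markers 13 of 13 had a positive fold change for the Keap1 mutant with Trsp deleted (median 1.99), against 8007 of 15781 genes tested. Of the 13, 11 had an unadjusted p under 0.05, against 17.6% of all genes, 2 a limma adjusted p under 0.05, and 0 were called. The same comparison gave Lcn2 a fold change of 2.85. Kupffer cell and macrophage markers (10 of 10 in the table) summed to 10086, 10281, 11907 and 5582 in the compound-mutant livers and to between 6472 and 19395 in the others. Monocyte markers (7 of 7) summed to 64604, 60325, 64806 and 51414 against 30165 to 78801. Fibronectin (Fn1), which is not restricted to monocytes, is among them, so this sum need not follow monocytes. For the Keap1 mutant with Trsp deleted 7 of 7 were positive and 5 had an unadjusted p under 0.05, against 17.6% of all genes. The chitinase-like Chil3 was called higher in that comparison (log2 fold change 2.53, standard error 0.45, limma adjusted p = 0.0068). Endothelial markers (6 of 6) summed to between 6410 and 10195 in all libraries and stellate cell and fibroblast markers (6 of 6) to between 15508 and 31028, the highest in control replicate 3. Erythroid markers (8 of 8) summed to 70943 in compound-mutant replicate 1 and to 9325 to 46710 in the other 15, replicate 3 being at 17402. B and T cell markers (8 of 8) summed to between 81.3 and 322 and biliary markers (5 of 5) to between 89.1 and 248. The part of these cells in the acute phase values was not tested.

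**Figure D5:**
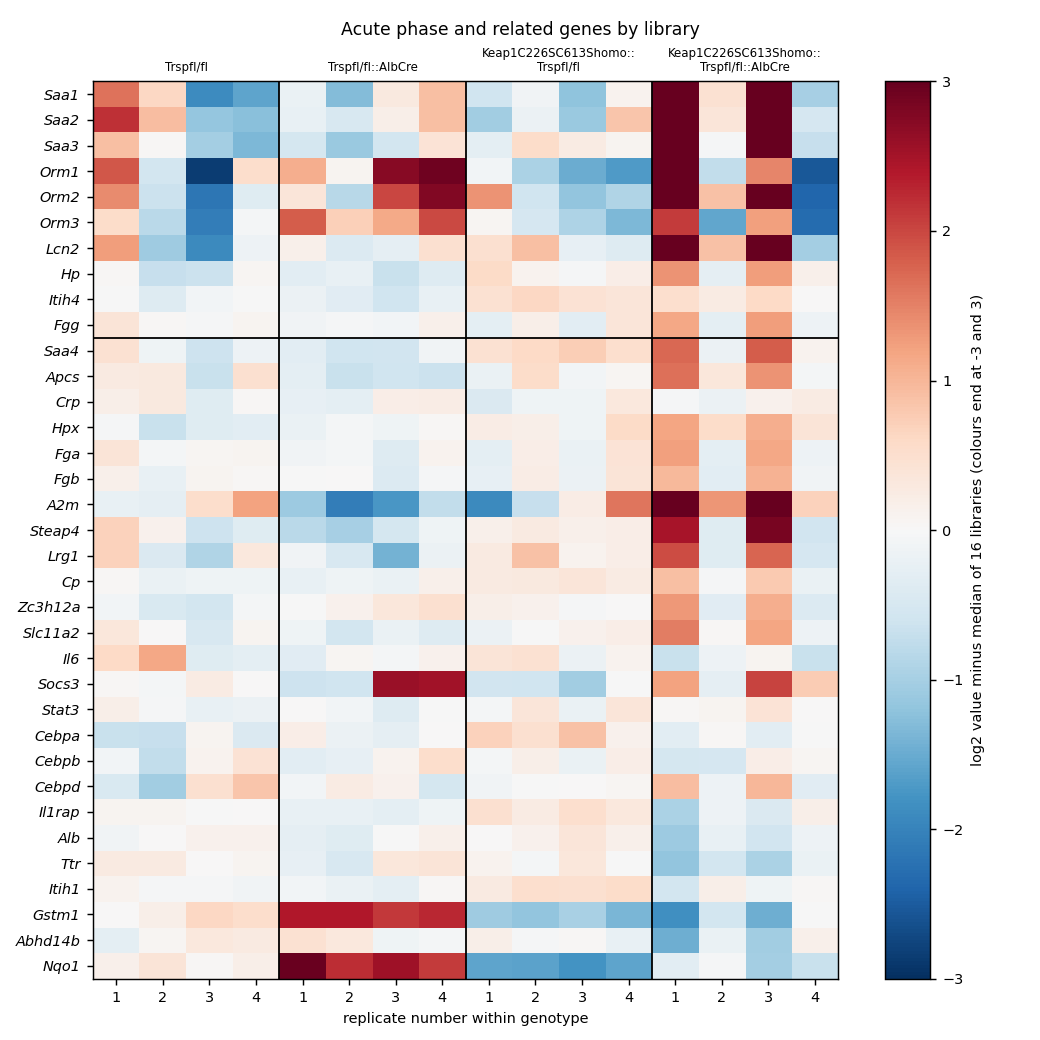
Log2 value minus the median of the 16 libraries (colour, ending at -3 and 3) for the 10 acute phase genes, above the horizontal line, and related genes named in the text, in libraries ordered by genotype and replicate. The columns of compound-mutant replicates 1 and 3 are red from Saa1 to Fgg and blue in Alb and Ttr, with columns 2 and 4 of that genotype unlike them.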

How the data were processed

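Livers of mice labelled male at 20 days of age were compared, 4 libraries in each of 4 genotypes taken from the sample titles. Per the study's methods, rRNA-depleted RNA was sequenced with a directional kit in read pairs, Salmon quantified it against GENCODE mouse transcripts, and the iDEP platform was used. The authors deposited log2 values per gene; tested on the table, each equals log2 of reads over a median-of-ratios size factor plus 4 (inverse steps within 1.9e-05 of those factors, 100% of low values whole reads within a tolerance of 0.1). The fold change of weakly expressed genes is understated on this scale. Of 18578 rows, 369 without an identifier were left out. Libraries held 11386669 to 19164133 reads (median 15509625). Their number limits the precision of genes with few reads, such as Orm3.

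limma 3.58.1 (R 4.3.3; lmFit, contrasts, eBayes with trend) was run on the deposited values of 15781 genes in one fit of 16 libraries with a mean per genotype, with Benjamini-Hochberg adjustment over all genes tested. On simulated data of 15781 genes for the Trsp knockout in Keap1 wild type, 99 of 100 genes changed by 2 log2 units and 100 of 100 changed by 3 were called, with 0 unchanged genes called. The changed genes were drawn only from those with a mean normalized count over 100 and a variance within genotypes under 2 times the median. All acute phase genes followed here except Itih4 varied more than that, so these rates do not apply to them. Associations with Saa1 used the same fit with Saa1 as a covariate. Python 3.11.15, pandas 2.3.3, scipy 1.17.1 and Biopython 1.88 served for descriptions and matplotlib 3.10.9 for plots. Promoter sequences are from RefSeq (GRCm38.p6), and lengths and shared 31-base words from GENCODE vM21, which is not the authors' release.

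The members, the related lists and the tests were chosen with earlier results of these data known. Beside members and always-named genes (Il6, Socs3, Stat3, Cebpb, Cebpd, Crp, Apcs, Hpx, Fga, Fgb, Saa4, Alb, Ttr and Nqo1), genes were named if called within a related list, if they had the smallest p of a list, or as the 5 most like and 3 most opposed to Saa1 and the 5 most like Lcn2, of which 1 opposed gene is not reported here. Gpx1, Xist, Adipoq and Chil3 were named outside this rule after their values were seen. Alternatives were pseudocounts of 1 and 0.5, no filter and a filter at 50, quantile and library-total scaling, fits to only the 2 genotypes compared, eBayes with robust settings or with no trend, limma voom on recovered reads, the replicate number as a block, an adjusted p under 0.05, no fold threshold, and each library left out in turn. Leaving out compound-mutant replicates 1 and 3 together was chosen after seeing the data.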

Additional observations from a re-analysis of the deposited data

How the results depend on the processing

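The count of members called was 0 in each of the 5 tests under all alternatives, leave-one-out fits included, and 0 with the replicate block. Same-numbered libraries did not deviate together, with correlations of -0.32 to 0.16 over the 4 comparisons and 1 of 16 pairs over 0.1, so the numbers were not taken as pairs. With no member called, no call could change direction, but fold changes changed sign, for example those of Saa3, Orm2 and Lcn2 for the Trsp knockout in the Keap1 mutant in 1 of 30 alternatives each, that of Orm3 for the Keap1 mutant with Trsp intact in 5 of 30 and that of Saa2 for the Trsp knockout in Keap1 wild type in 4 of 30. The count of members associated with Saa1 moved from 7 of 9 to 2 without the 2 libraries farthest from the median in Saa1, and ranged from 4 (without compound-mutant replicate 4, when 45 of all genes were associated in place of 975) to 8 when single libraries were left out; the cause of the fall to 4 was not tested. Fold changes of Saa1 for the Trsp knockout in the Keap1 mutant ranged from 0.19 to 5.03 over 30 alternatives, with limma adjusted p from 0.049 to 0.98, and those of Itih4 for the Keap1 mutant with Trsp deleted from 0.46 to 0.80, with limma adjusted p from 0.014 to 0.44. Orm3, at 1 to 109 reads, is limited by depth.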

Other observations

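Some genes of the response did not follow Saa1. Hamp and Hamp2, which encode the iron hormone hepcidin and its relative, are given here after their values were seen. Hamp was 5.08, 6.70, 8.16 and 8.26 in compound-mutant replicates 1 to 4 and ranged from 2 (0 reads) to 10.26 over all libraries, the highest being Trsp-knockout replicate 2, where Saa1 was 5.98. Hamp2 was 4.62, 8.88, 7.52 and 9.998 in the compound-mutant livers and 6.52, 11.11, 7.78 and 9.73 in the Trsp-knockout livers.

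Junb and Pim1, immediate targets of cytokine signalling that were also chosen after their values were seen, were highest in Trsp-knockout replicates 3 and 4, like Socs3 in the report. Junb was 11.27 and 11.14 there, against 7.93 to 10.55 in the other 14 libraries, and Pim1 was 8.87 and 8.84, against 7.33 to 8.81. Orm1 was 12.50 and 12.69 in the same livers, while Saa1 was 7.57 and 8.17 and Lcn2 8.43 and 9.19.

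The chemokine genes Cxcl1 and Ccl2, which were chosen in the same way, were high in compound-mutant replicates 1 and 3. Cxcl1 was 10.31, 6.35, 10.61 and 4.70 in the compound-mutant livers and between 4.04 and 7.61 in the others, and Ccl2 was 7.46, 4.18, 7.60 and 3.17, against 3.01 to 5.76.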
